A study of Homo sapiens with 31 samples.

Results

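The 7 mRNAs described here encode the translation elongation factors of the eEF1 and eEF2 families and 1 protein named with them: EEF1A1, EEF1A2, EEF1B2, EEF1D, EEF1G, EEF1E1 and EEF2. They were chosen by name, through their Ensembl transcript identifiers, with the listed length of the counted region checked against the protein length. The transcripts were ENST00000316292 (EEF1A1, chromosome 6), ENST00000217182 (EEF1A2, chromosome 20), ENST00000236957 (EEF1B2, chromosome 2), ENST00000317198 (EEF1D, chromosome 8), ENST00000329251 (EEF1G, chromosome 11), ENST00000379715 (EEF1E1, chromosome 6) and ENST00000309311 (EEF2, chromosome 19). All 7 were found, among 94734 transcripts with at least 1 count, and all 7 passed the filter on low counts in every comparison. After neighbouring transcripts with like counts were reduced to 1, 35500 remained, called 1 transcript per locus below. A gene can keep more than 1 of these, so ranks and shares over loci can count a gene more than once. The values come from 31 libraries of 3 assays on HEK293 T-REx, a line of human embryonic kidney origin built for inducible transgenes.

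Elongation factors carry the ribosome along the mRNA. eEF1A, in its GTP form, brings each aminoacyl-tRNA to the ribosome, the eEF1B complex reloads eEF1A with GTP, and eEF2 moves the ribosome on by a codon. Their mRNAs are, with those of the ribosomal proteins, classical TOP mRNAs: they begin with a C followed by a run of pyrimidines (the 5' terminal oligopyrimidine motif), and their translation depends on the kinase complex mTORC1. LARP1 is an RNA-binding protein that recognizes the cap and the TOP motif, and eIF4A1 and eIF4A2 are paralogous RNA helicases of translation initiation. Of the 7, EEF1A2, the paralog of EEF1A1 found mainly in muscle and neurons, and EEF1E1, a scaffold protein (AIMP3) of the multi-synthetase complex, are not counted among the known TOP mRNAs.

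Ribosome profiling, which counts the mRNA fragments that ribosomes protect from nuclease, covered 3 genotypes: naive, knockout (KO) of EIF4A1 and knockout of EIF4A2. Each genotype had 2 libraries with the solvent DMSO, 1 with 1 µM and 1 with 10 µM of PP242, an inhibitor of the mTOR kinase, given for 30 min. RNA-seq covered naive and EIF4A1 KO cells without PP242, with 2 libraries each. RNA pulldown used cells expressing eIF4A1 or eIF4A2 with a streptavidin-binding peptide (SBP), with 2 input and 2 pulldown libraries each. SBP-eIF4A1 cells were also studied 72 h after transfection with siRNA: 2 input and 2 pulldown libraries with control siRNA (siControl), and 2 input and 1 pulldown library with LARP1 siRNA (siLARP1). The number of clones behind each knockout or SBP line, and whether the replicates came from separate cultures, are not given in the sources used here, so p-values measure the spread between these libraries, which may be technical. The labels also do not say whether libraries of different lines were prepared together. Genotype or SBP protein therefore cannot be told apart from any difference in preparation between the lines.

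Total counts over 1 transcript per locus ran from 2513652 to 6416746 in the 12 profiling libraries, from 19700219 to 21622295 in the 4 RNA-seq libraries and from 11885920 to 17637180 in the 15 pulldown and input libraries. The targeted genes were checked against the labels. EIF4A1 had 2437 and 2504 CPM (counts per 1000000 counts of the library, over 1 transcript per locus) in naive DMSO footprints, against 490.3 and 578 in EIF4A1 KO cells, and its mRNA had 2067 and 2049 CPM against 946 and 936. EIF4A2 footprints were 151 and 123 CPM in naive cells, 57.9 and 58.9 in EIF4A2 KO cells, and 714 and 685 in EIF4A1 KO cells. Counts of the targeted gene thus remained in both knockouts, and EIF4A2 footprints were higher in EIF4A1 KO than in naive cells. The part of either in the genotype comparisons below was not tested. LARP1 had 194 and 179.5 CPM in siControl inputs and 89.3 and 72.9 in siLARP1 inputs. One library went against its label. The library labelled siLARP1 input replicate 2, of SBP-eIF4A1 cells, had 1002 CPM of EIF4A2 and 1731 of EIF4A1. The SBP-eIF4A2 inputs had 988 and 1003 CPM of EIF4A2 and 1852 and 1891 of EIF4A1, while siLARP1 input replicate 1 had 276 and 2914. The members' changes with LARP1 knockdown are given with and without this library.

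The starts of the mRNAs are shown because 5 of the 7 are known TOP mRNAs, a class taken from earlier knowledge and not from these windows. Each line below gives 10 bases before and 20 bases from an annotated RefSeq start (assembly GRCh38.p14, 5' to 3' on the transcript's strand). Capitals mark an unbroken pyrimidine run that begins with C at the start itself and goes on for at least 4 more C or T. EEF1A1 lies at chr6:73521013-73521042 (minus strand), EEF2 at chr19:3985444-3985473 (minus), the second EEF1B2 start at chr2:206159885-206159914 (plus), EEF1G at chr11:62573872-62573901 (minus) and EEF1E1 at chr6:8102529-8102558 (minus).
EEF1A1: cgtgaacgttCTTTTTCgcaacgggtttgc
EEF2: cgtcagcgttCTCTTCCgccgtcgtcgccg
EEF1B2: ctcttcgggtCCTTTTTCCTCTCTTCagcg
EEF1G: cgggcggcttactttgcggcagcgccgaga
EEF1E1: tgcaggtctcgcgtctgccaggagctacgg

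EEF1A1 and EEF2 each began with a run of 7 pyrimidines and the second EEF1B2 start with a run of 16. The annotated EEF1G start fell on an A and that of EEF1E1 on a G, so neither window holds the motif. The other annotated EEF1B2 start, an A, did not hold it either. EEF1A2 had no entry and EEF1D, a TOP member, was left out of the lookup, so neither is shown. Of the 5 members looked up, 3 had a start with the motif. Over all genes of the table, 1404 of 27305 (5.14%) had at least 1 start with the motif, and 5 of the 7 ribosomal protein genes looked up did. Annotated starts can differ by a few bases from those used in these cells, so a window without the motif describes the annotation.

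In untreated naive cells EEF1A1 drew more counts than any other locus in both assays. EEF1A1 alone made up 2.15% and 2.09% of the RNA-seq counts and 0.78% and 0.80% of the footprints, and it ranked first among all loci in each of these libraries. The 7 mRNAs together made up 3.17% and 3.13% of the RNA-seq counts and 1.26% and 1.31% of the footprints. Per length (CPM per 1000 counted codons, mean of 2 libraries), the mRNA order was EEF1A1 at 46778, EEF1G at 8469, EEF2 at 6107, EEF1B2 at 4112, EEF1D at 1509, EEF1E1 at 635 and EEF1A2 at 195. The footprint order per length was EEF1A1 at 17440, EEF2 at 3728, EEF1G at 2334, EEF1B2 at 2037, EEF1E1 at 928, EEF1D at 585 and EEF1A2 at 156. No neighbours in either order overlapped between their 2 libraries. The eEF1B subunits did not stand at one level: footprints on EEF1B2, a nucleotide exchange subunit, and EEF1G, a structural subunit, were near each other per length, while the other exchange subunit EEF1D stood below both. For EEF1D this is 1 transcript of a gene with several.

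Relative to all mRNAs, the 5 TOP members had fewer footprints than their mRNA level in untreated naive cells. As a description on the TMM-scaled log2 scale, with no test drawn on, footprints minus RNA were -1.75 for EEF1G, -1.32 for EEF1A1, -1.26 for EEF1D, -0.91 for EEF1B2 and -0.61 for EEF2, against a median of -0.09 over 25459 transcripts. EEF1A2 stood at -0.22 and EEF1E1, the scaffold protein, at 0.65. The 10 ribosomal protein TOP mRNAs used as a reference had a median of -1.25, and the values of the 5 TOP members lay within the range of that list, from -2.73 to -0.24. EEF1A1 has many processed pseudogenes and a close paralog in EEF1A2. How reads shared between such copies were counted is not given in the sources used here, so the split between copies is uncertain.

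Footprints on most of these mRNAs fell with PP242. After 30 min, those on EEF1A1 fell 6.74-fold in naive cells, those on EEF2 5.14-fold and those on EEF1G 4.04-fold, while EEF1E1 did not pass the test. The members' share of all footprints was 0.249% with 1 µM and 0.309% with 10 µM. EEF1A1, first of all loci with DMSO, ranked between 21st and 84th in the 6 PP242 libraries. Each dose had 1 library per genotype, so both doses were joined as PP242 (2 libraries) against DMSO (2 libraries) in a single edgeR quasi-likelihood fit of the 12 profiling libraries. No RNA-seq with PP242 was analysed here, so less translation and less mRNA cannot be told apart in these footprint values.

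**Figure D1:**
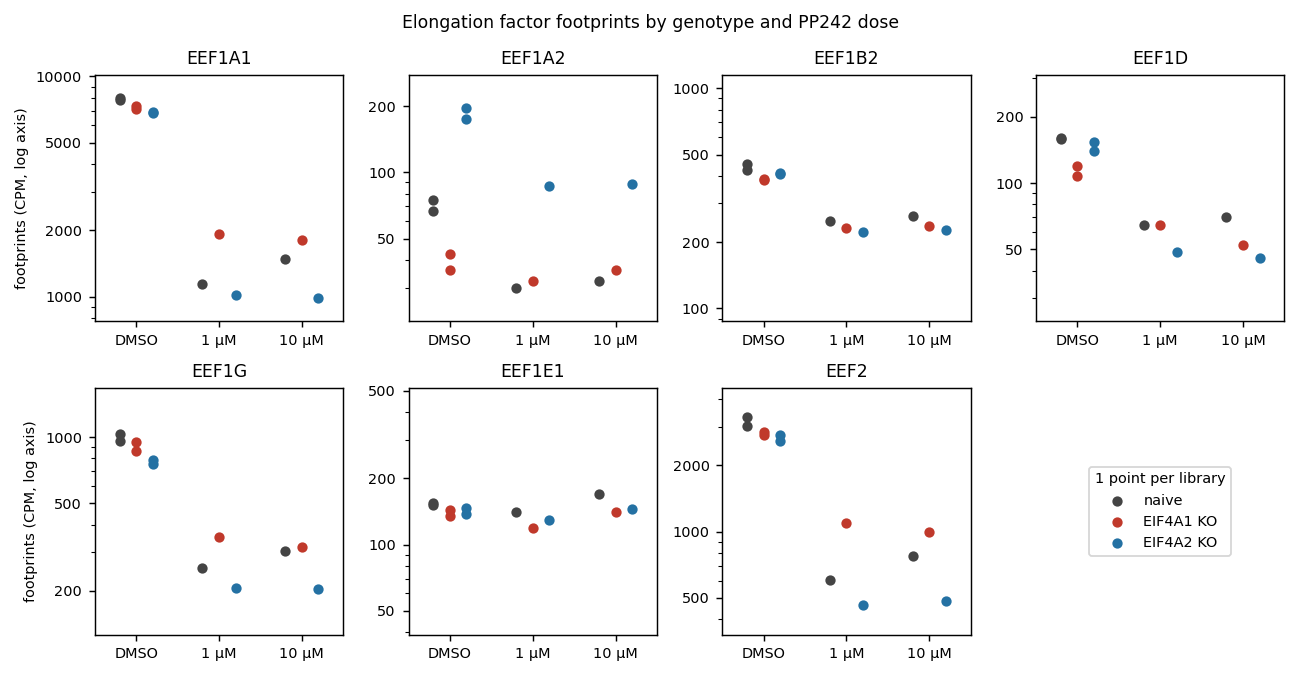
Footprints on each elongation factor mRNA (CPM of the library total, log axis spanning the same fold range in each panel) by PP242 dose, 1 point per library, coloured by genotype. The PP242 points of EEF1A1 lie at 983 to 1931 CPM and the DMSO points at 6852 to 8004, the red EIF4A1 KO points of EEF1A1, EEF1G and EEF2 are the highest of the 3 genotypes under PP242, and EEF1E1 stays between 119 and 169 CPM throughout.

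EEF1A1, the factor that delivers aminoacyl-tRNA, had 7796 and 8004 CPM in naive DMSO libraries, 1143 with 1 µM and 1479 with 10 µM PP242. In EIF4A1 KO cells it had 7368 and 7079 CPM with DMSO, 1931 with 1 µM and 1800 with 10 µM. In EIF4A2 KO cells it had 6898 and 6852 CPM with DMSO, 1020 with 1 µM and 983 with 10 µM. PP242 and DMSO libraries did not overlap in any genotype, and both EIF4A1 KO libraries with PP242 lay above all 4 PP242 libraries of the other genotypes. The log2 change was -2.75 ± 0.07 (SE) in naive cells (edgeR adjusted p = 4.59e-44), -2.09 ± 0.07 in EIF4A1 KO cells (edgeR adjusted p = 1.85e-37) and -2.94 ± 0.07 in EIF4A2 KO cells (edgeR adjusted p = 1.01e-45).

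EEF2, the translocation factor, had 3026 and 3304 CPM in naive DMSO libraries, 605 with 1 µM and 775 with 10 µM. In EIF4A1 KO cells it had 2847 and 2755 CPM with DMSO, 1092 with 1 µM and 997 with 10 µM. In EIF4A2 KO cells it had 2737 and 2583 CPM with DMSO, 463.5 with 1 µM and 484 with 10 µM. Again the treated and untreated libraries did not overlap, and the EIF4A1 KO libraries kept the most EEF2 footprints under the drug. The log2 changes were -2.36 ± 0.07 in naive cells, -1.56 ± 0.07 without EIF4A1 and -2.65 ± 0.07 without EIF4A2, with edgeR adjusted p-values of 1.33e-39, 2.73e-30 and 2.47e-42.

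The eEF1B subunits fell less than EEF1A1 and EEF2 in naive cells, with EEF1G the closest to them. EEF1G had 961 and 1037 CPM in naive DMSO libraries against 254 and 303 with 1 and 10 µM, 949 and 866 against 352 and 317.1 in EIF4A1 KO cells, and 785 and 754 against 206 and 204 in EIF4A2 KO cells. Its log2 changes were -2.01, -1.58 and -2.07 (SE 0.07 each). EEF1D had 160.0 and 158 CPM against 64.5 and 70.4 in naive cells, 120.1 and 107 against 64.3 and 52.5 in EIF4A1 KO cells, and 139.9 and 153.2 against 48.4 and 45.8 in EIF4A2 KO cells. The 2 groups of each genotype stayed apart for both subunits. The EEF1D changes were -1.41 ± 0.09, -1.13 ± 0.10 and -1.80 ± 0.10. EEF1B2 fell least of the TOP members. It had 455.3 and 425 CPM against 249.1 and 264 in naive cells, and its log2 changes were -0.94, -0.87 and -1.03 (SE 0.07 each). Each of these EEF1G, EEF1D and EEF1B2 changes passed the test (the highest edgeR adjusted p, that of EEF1D in EIF4A1 KO cells, was 4.36e-14).

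EEF1A2 and EEF1E1, which are not known TOP mRNAs, did not behave alike. EEF1A2 had 74.8 and 66.5 CPM in naive DMSO libraries against 29.8 and 32.0 with PP242, and 196 and 175 against 86.5 and 88.5 in EIF4A2 KO cells. In EIF4A1 KO cells it had 36.0 and 42.6 CPM with DMSO against 32.2 and 35.8. The groups were well apart in the first 2 and nearly touched in EIF4A1 KO cells, where the DMSO level was already near that of treated naive cells. Its log2 change was -1.36 ± 0.12 in naive cells (edgeR adjusted p = 8.13e-15), -1.24 ± 0.09 in EIF4A2 KO cells (edgeR adjusted p = 5.02e-20) and -0.33 ± 0.14 in EIF4A1 KO cells (edgeR adjusted p = 0.168). EEF1E1 had 155 and 152 CPM in naive DMSO libraries, 140.5 with 1 µM and 169 with 10 µM. It had 143 and 135 CPM against 119 and 141 in EIF4A1 KO cells, and 137 and 146 against 129 and 145.0 in EIF4A2 KO cells. Its DMSO and PP242 libraries overlapped in each genotype. The log2 change was -0.16 in naive cells (95% interval from the SE -0.32 to 0.01), -0.23 in EIF4A1 KO cells (-0.41 to -0.05) and -0.20 in EIF4A2 KO cells (-0.37 to -0.04), and none passed after adjustment by edgeR. Taken by dose, each arm is 1 library, assumed to vary like the other groups. EEF1E1 was then at -0.30, -0.36 and -0.30 with 1 µM in the same order (edgeR adjusted p = 0.0339, 0.0214 and 0.0286), and at -0.01, -0.13 and -0.12 with 10 µM (edgeR adjusted p = 0.985, 0.578 and 0.535).

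In counts, 6 of the 7 were lower with PP242 in naive cells, where 9.37% of 20506 transcripts were called and 5.7% were called lower. In EIF4A1 KO cells 5 of the 7 were lower (background 6.01% called, 3.69% lower) and in EIF4A2 KO cells 6 of the 7 (11.7% called, 7.11% lower). The median change of the 7 was -1.41, -1.13 and -1.80, against medians of 0.00, 0.01 and 0.01 over all transcripts tested. The comparison of each genotype used its own DMSO libraries. Scaling by library totals in place of TMM moved the median of all transcripts by 0.15 to 0.17 upward, with 2768 called higher and 663 lower in naive cells against 754 and 1168 with TMM, and left the calls of the 7 members as they were. Coded as a trend over 3 dose steps, no member passed in EIF4A1 KO cells (EEF1A1 -1.14 per step, edgeR adjusted p = 0.0658). With this coding 0 transcripts in all were called there, so it cannot set the members apart from other mRNAs.

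The other genes of elongation and termination did not fall as a group. Of 10 such genes, 3 rose and 1 fell in naive cells, with a median of 0.01: the largest rise was that of GSPT1 (release factor eRF3a) at 0.27 and the fall that of TUFM (the mitochondrial counterpart of eEF1A) at -0.36. In EIF4A1 KO cells 1 rose (EIF5A, a factor that helps stalled peptide bonds form, 0.27) and 0 fell, with a median of -0.13, and in EIF4A2 KO cells 3 rose, led by HBS1L, a ribosome rescue GTPase, at 0.31, and 1 fell (TUFM, -0.53), with a median of 0.12. Of 4 listed genes for synthetases or the multi-synthetase complex, KARS1, the lysyl-tRNA synthetase, fell in each genotype (-0.42, -0.44 and -0.51). VARS1, the valyl-tRNA synthetase, rose in EIF4A1 KO cells (0.34). All 10 ribosomal protein TOP mRNAs fell in each genotype, with medians of -1.93, -1.41 and -1.95. These lists are small and were chosen with earlier results known.

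**Figure D2:**
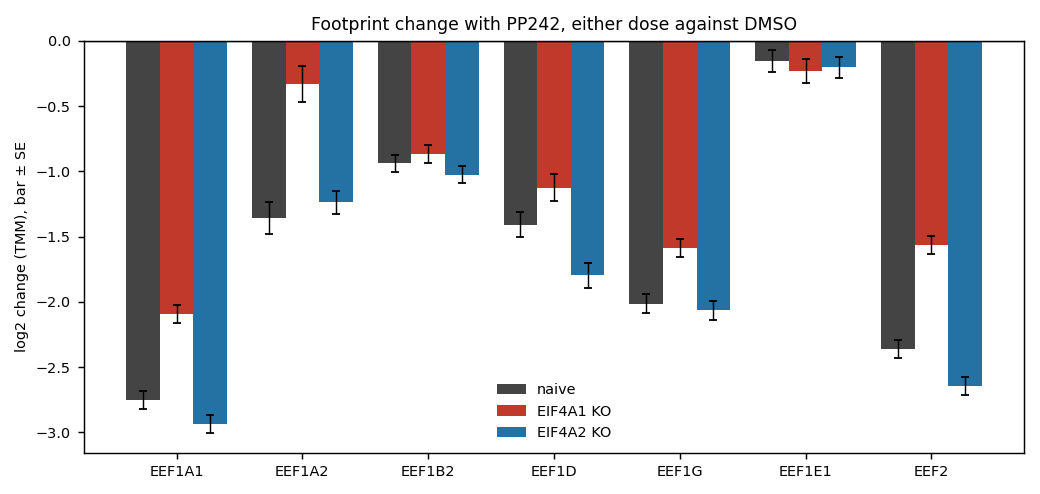
Log2 change of footprints with PP242 (both doses together) against DMSO, TMM-scaled, for each elongation factor mRNA and genotype, bars with the standard error of the edgeR fit (2 against 2 libraries). The bars of EEF1A1 and EEF2 are the longest in naive and EIF4A2 KO cells, the red EIF4A1 KO bar is the shortest of the 3 for all members but EEF1E1, and EEF1A2 in EIF4A1 KO cells and EEF1E1 throughout did not pass the test.

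The study asks whether eIF4A1 takes part in the repression of translation when mTORC1 is inhibited, which the difference between the genotypes' responses addresses. The fall with PP242 was smaller in EIF4A1 KO than in naive cells for 4 of the 7 members, where 6.06% of all transcripts were called and 3.61% in this direction. The difference was 1.02 ± 0.19 on the log2 scale for EEF1A2 (edgeR adjusted p = 8.19e-05), 0.80 ± 0.10 for EEF2 (edgeR adjusted p = 6.28e-09), 0.66 ± 0.09 for EEF1A1 (edgeR adjusted p = 2.42e-07) and 0.43 ± 0.10 for EEF1G (edgeR adjusted p = 0.00261). For EEF1A2 the PP242 levels were near each other (32.2 and 35.8 CPM in EIF4A1 KO, 29.8 and 32.0 in naive cells). Its DMSO levels differed (36.0 and 42.6 against 74.8 and 66.5 CPM), and their part in this difference was not tested. The EEF1G difference did not pass without the naive library with 1 µM PP242 (0.29, edgeR adjusted p = 0.111). With 1 library per dose, EEF1A1 differed by 0.93 at 1 µM and 0.41 at 10 µM, and EEF1G by 0.65 at 1 µM and by 0.21 at 10 µM, where it did not pass (edgeR adjusted p = 0.373). Coded as a trend over the dose steps, none of the 4 differences passed (edgeR adjusted p 0.357 to 0.908). Only 4 transcripts in all were called with this coding, so it says little about these mRNAs in particular. EEF1D differed by 0.28 (interval 0.00 to 0.56) and EEF1B2 by 0.07 (-0.11 to 0.26), and neither passed. EEF1E1 differed by -0.07 (-0.32 to 0.17).

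Against EIF4A2 KO cells, with which they share no library, EIF4A1 KO cells had the smaller fall for 5 of the 7 (6.21% of transcripts called, 3.7% in this direction). EEF2 differed by 1.08 ± 0.10, EEF1A2 by 0.91 ± 0.16, EEF1A1 by 0.84 ± 0.09, EEF1D by 0.67 ± 0.14 and EEF1G by 0.48 ± 0.10 (edgeR adjusted p between 7.42e-14 and 0.000981). None of the 5 passed as a trend over the dose steps (edgeR adjusted p 0.466 to 0.829), a coding with which 1 transcript in all was called. EEF1B2 differed by 0.16 (-0.03 to 0.35). DMSO levels of EEF1A2 were 36.0 and 42.6 CPM in EIF4A1 KO against 196 and 175 in EIF4A2 KO cells. With PP242 they were 32.2 and 35.8 against 86.5 and 88.5. EEF1D had 120.1 and 107 against 139.9 and 153.2 CPM with DMSO. The part of these DMSO levels in the differences was not tested. Of the ribosomal protein TOP mRNAs, 8 of 10 had the smaller fall against naive cells and 10 of 10 against EIF4A2 KO cells. These comparisons share the EIF4A1 KO libraries. In those against EIF4A2 KO cells, genotype and any difference in library preparation cannot be told apart.

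Between EIF4A2 KO and naive cells no member's response differed by edgeR's test after adjustment, where 0.0683% of transcripts were called and 1314 had an unadjusted p under 0.05. DESeq2 called 9 transcripts and 0 members. EEF1D differed by -0.39, EEF2 by -0.28 and EEF1A1 by -0.18, each in the direction of a larger fall without EIF4A2. Without the naive library with 1 µM PP242, EEF1A1 (-0.37, edgeR adjusted p = 0.00765) and EEF2 (-0.47, edgeR adjusted p = 0.00215) passed.

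Without PP242, the TOP members differed between EIF4A1 KO and naive cells by at most 0.27 on the log2 scale in RNA and by at most 0.52 in footprints, while EEF1A2 differed more. In the RNA-seq libraries EEF1A1 had 21528 and 20853 CPM in naive and 22259 and 22430 in EIF4A1 KO cells, a rise of 0.07 ± 0.02 (edgeR adjusted p = 0.00356, 36.5% of 25745 transcripts called). EEF2 had 5079 and 5291 CPM against 5757 and 5624, and EEF1G 3570 and 3679 against 3988 and 3942. The groups did not overlap for any of these 3 mRNAs, although each difference was under 0.13 on the log2 scale. EEF2 rose by 0.13 and EEF1G by 0.12, EEF1D fell by 0.27 and EEF1E1 by 0.18, and EEF1B2 (0.05, edgeR adjusted p = 0.159) did not pass. The EEF1E1 call was lost without EIF4A1 KO RNA replicate 1 (-0.15, edgeR adjusted p = 0.0686), and that of EEF1A1 with DESeq2 (adjusted p = 0.0705). EEF1A2 had 86.2 and 90.8 CPM in naive and 30.6 and 35.4 in EIF4A1 KO cells, a log2 change of -1.43 ± 0.06 (edgeR adjusted p = 2.35e-18). Thus 6 of the 7 passed, 3 in each direction.

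Footprints of 6 members were lower in untreated EIF4A1 KO cells (22.7% of 19845 transcripts called, 11.8% lower). The change was -0.17 for EEF1A1, -0.18 for EEF1G, -0.22 for EEF2, -0.23 for EEF1B2, -0.52 for EEF1D and -0.89 for EEF1A2, with edgeR adjusted p-values from 1.38e-09 to 0.00943. EEF1E1 stood at -0.18 (edgeR adjusted p = 0.107). Of all transcripts tested, 32.3% to 36.6% had lower values than EEF1B2, EEF2, EEF1G and EEF1A1. The shares were 15.8% for EEF1D and 6.41% for EEF1A2. The EEF1A1 call was lost without EIF4A1 KO DMSO replicate 2 (-0.14, edgeR adjusted p = 0.0668), the EEF1B2 call without naive DMSO replicate 1 (-0.19, edgeR adjusted p = 0.0524) and the EEF1G call without naive DMSO replicate 2 (-0.12, edgeR adjusted p = 0.204) or EIF4A1 KO DMSO replicate 2 (-0.11, edgeR adjusted p = 0.286) and with DESeq2 (adjusted p = 0.0785).

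Translation efficiency, the footprint change beyond the RNA change in 1 model over both assays, was lower for all 5 TOP members in EIF4A1 KO cells. It fell by 0.36 ± 0.05 for EEF2 (edgeR adjusted p = 1.86e-07), 0.31 ± 0.06 for EEF1G, 0.29 ± 0.07 for EEF1B2, 0.26 ± 0.09 for EEF1D (edgeR adjusted p = 0.0389) and 0.25 ± 0.05 for EEF1A1. EEF1A2 went the other way, at 0.53 ± 0.14 (edgeR adjusted p = 0.00756), since its footprints fell less than its mRNA. EEF1E1 was at 0.00 (-0.18 to 0.18). With 6 of 7 called, 9.49% of 25459 transcripts were called and 5.74% were called lower, and the median of all was -0.04. In size the falls of the 5 TOP members were not extreme: from 27.3% (EEF2) to 33.8% (EEF1A1) of the transcripts tested had lower values. The EEF1D call was lost with library totals (-0.22, edgeR adjusted p = 0.105), with DESeq2 size factors in edgeR (adjusted p = 0.0615), with DESeq2 (adjusted p = 0.0693) and without either EIF4A1 KO RNA library, naive RNA replicate 1 or EIF4A1 KO DMSO replicate 2 (edgeR adjusted p 0.0813 to 0.191). That of EEF1A2 was lost without naive DMSO replicate 2, EIF4A1 KO DMSO replicate 2 or EIF4A1 KO RNA replicate 1 (0.37 to 0.43, edgeR adjusted p 0.0668 to 0.272). Among the ribosomal protein TOP mRNAs 5 of 10 were lower, with a median of -0.18.

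In untreated EIF4A2 KO cells 4 of the 7 footprint levels differed from naive cells (8.04% of transcripts called). EEF1A2 had 196 and 175 CPM against 74.8 and 66.5, a rise of 1.38 ± 0.08 (edgeR adjusted p = 1.92e-30), opposite in direction to its level in EIF4A1 KO cells. EEF1G fell by 0.39 ± 0.05, EEF2 by 0.27 ± 0.05 and EEF1A1 by 0.22 ± 0.04 (edgeR adjusted p = 3.38e-09, 1.22e-05 and 0.000164). EEF1B2, EEF1D and EEF1E1 stood between -0.13 and -0.12 and did not pass. All 10 ribosomal protein TOP mRNAs were lower, with a median of -0.23. No RNA-seq of EIF4A2 KO cells was analysed here, so mRNA level and translation cannot be told apart for this genotype. Nor can the genotype be told apart from any difference in library preparation.

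**Figure D3:**
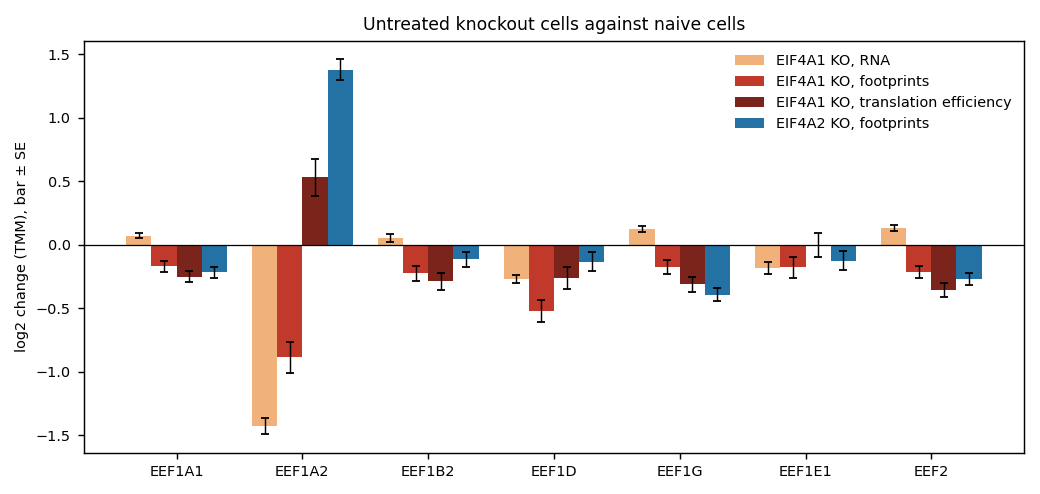
Log2 differences of untreated knockout cells from naive cells (TMM-scaled, bars with the standard error of the edgeR fit, 2 against 2 libraries) in RNA, footprints and translation efficiency without EIF4A1, and in footprints without EIF4A2. Footprints and translation efficiency of the 5 TOP members lie between -0.52 and -0.12, while the EEF1A2 bars reach -1.43 in RNA and 1.38 in EIF4A2 KO footprints.

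The ratio of the paralogs EEF1A1 and EEF1A2 shows how far EEF1A2 varied between the lines. Per counted codon, EEF1A1 had 104 and 121 times the footprints of EEF1A2 in naive DMSO libraries, 205 and 167 times in EIF4A1 KO and 35.3 and 39.3 times in EIF4A2 KO cells. With PP242 the ratio was 38.4 and 46.3 in naive, 60.2 and 50.3 in EIF4A1 KO and 11.8 and 11.1 in EIF4A2 KO cells. It was thus lower in every PP242 library than in the DMSO libraries of the same genotype. Inputs of the SBP lines differed as well: EEF1A2 had 72.0 and 66.3 CPM in SBP-eIF4A1 inputs and 109 and 113 in SBP-eIF4A2 inputs, and 25.2 and 17.03 in siControl inputs.

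Across the 12 profiling libraries the 5 TOP members followed one another closely, as a description over libraries that share genotypes and doses. The Pearson correlation of log2 CPM between any 2 of them was 0.94 to 0.99. With the TOP members, EEF1A2 correlated at 0.26 to 0.42 and EEF1E1 at 0.16 to 0.34. Among 10583 transcripts with a mean of at least 50 counts, the profile most like that of EEF1A1 belonged to ENST00000009589.7 (r = 0.999) and that most like EEF2 to ENST00000369817.6 (r = 0.998), neither of which is on a gene list used here.

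The pulldowns ask which mRNAs are recovered with each helicase. In cells without siRNA, 4 of these mRNAs were above and 3 below their input level with SBP-eIF4A1, and 5 were below it with SBP-eIF4A2. EEF1A1 had 23084 and 23628 CPM in SBP-eIF4A1 inputs and 18084 and 18633 in the pulldowns, against 20136 and 21085 in SBP-eIF4A2 inputs and 11856 and 13286 in the pulldowns. EEF2 had 5015 and 5031 CPM in SBP-eIF4A1 inputs against 3090 and 3256 in the pulldowns, and 6948 and 7256 against 3875 and 4122 with SBP-eIF4A2. Pulldown and input did not overlap for either mRNA. No pulldown from cells without an SBP protein was analysed here, so RNA bound by the beads themselves enters these values.

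With SBP-eIF4A1 all 7 passed the test, where 55.4% of 26601 transcripts were called. EEF1E1 (0.63), EEF1D (0.49), EEF1B2 (0.30) and EEF1G (0.17) were higher in the pulldown, and EEF2 (-0.54), EEF1A2 (-0.31) and EEF1A1 (-0.22) lower (SE 0.05 to 0.07). The EEF1G call was lost with library totals (0.05, edgeR adjusted p = 0.401) and without input replicate 1 or pulldown replicate 2 (edgeR adjusted p = 0.132 and 0.0818). With SBP-eIF4A2, 6 passed, where 59.8% were called: EEF1E1 was higher (0.34), and EEF2 (-1.02), EEF1A2 (-0.99), EEF1A1 (-0.90), EEF1G (-0.60) and EEF1B2 (-0.50) were lower (SE 0.05 to 0.07). EEF1D was at 0.02 (-0.10 to 0.13) with TMM and at 0.20 with library totals, where it passed (edgeR adjusted p = 0.00437). Of the 10 other elongation and termination factors 8 were lower with SBP-eIF4A1 and 9 with SBP-eIF4A2, with medians of -0.72 and -0.88. Of the ribosomal protein TOP mRNAs 9 were higher and 0 lower with SBP-eIF4A1 (median 0.77), and 3 higher and 4 lower with SBP-eIF4A2 (median -0.07).

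The enrichment was higher with SBP-eIF4A1 than with SBP-eIF4A2 for all 7 on the TMM scale, where 15.7% of transcripts were called and 10.4% were called higher. The difference was 0.80 ± 0.09 for EEF1B2, 0.77 ± 0.07 for EEF1G, 0.68 ± 0.10 for EEF1A2, 0.68 ± 0.08 for EEF1A1, 0.48 ± 0.08 for EEF2, 0.47 ± 0.08 for EEF1D and 0.29 ± 0.08 for EEF1E1 (edgeR adjusted p from 2.81e-06 to 0.0257). This count depended on the scaling. With library totals the median of all transcripts moved to -0.28, 4 members still passed (EEF1B2 0.49, EEF1G 0.46, EEF1A2 0.37, EEF1A1 0.37), EEF2 (0.17) and EEF1D (0.16) did not, and EEF1E1 was at -0.02. The split of all calls turned with it, from 2768 higher and 1409 lower with TMM to 963 and 4791. The EEF1E1 call was also lost with DESeq2 (adjusted p = 0.089) and without either SBP-eIF4A1 input, SBP-eIF4A1 pulldown replicate 2 or either SBP-eIF4A2 input (edgeR adjusted p 0.0873 to 0.119). All 10 ribosomal protein TOP mRNAs were higher with SBP-eIF4A1 on the TMM scale, with a median of 0.80, and 4 of the 10 other elongation and termination factors, led by EIF5A at 0.58. Each SBP protein was expressed in its own cells, so the protein, the cell line and any difference between the experiments cannot be told apart here.

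**Figure D4:**
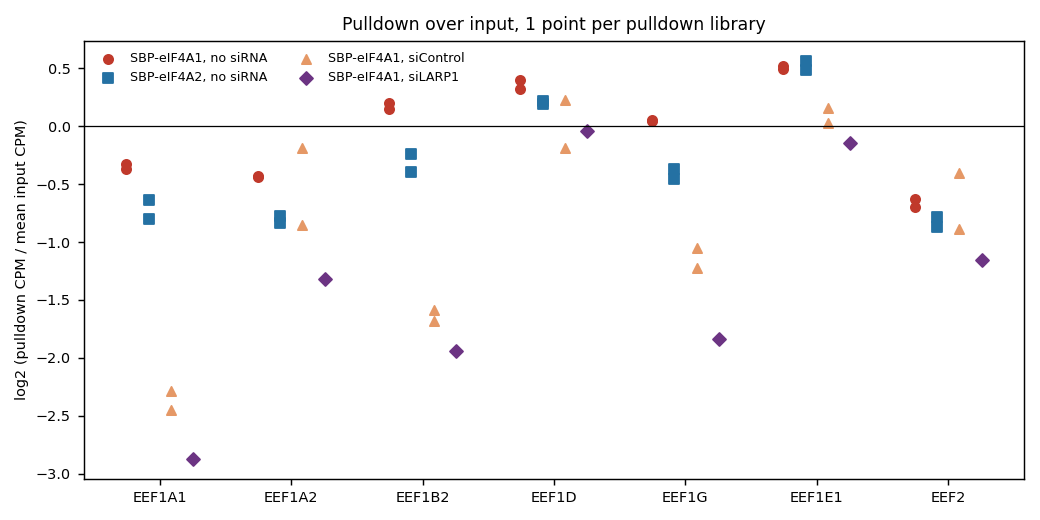
Log2 ratio of each pulldown library to the mean of its inputs (both in CPM of the library total, so that the zero line depends on that scaling), for each elongation factor mRNA, with 1 point per pulldown library. EEF1A1 lies at -0.37 and -0.33 with SBP-eIF4A1, at -0.80 and -0.63 with SBP-eIF4A2, at -2.29 and -2.45 after siControl and at -2.87 after siLARP1.

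After control siRNA the pulldown with SBP-eIF4A1 gave another picture. EEF1A1 had 23852 and 25124 CPM in the siControl inputs and 5008 and 4486 in the pulldowns, a change of -2.84 ± 0.17 (edgeR adjusted p = 3.25e-17). EEF1B2 had 843 and 890 CPM against 269.8 and 288 (-2.10 ± 0.18), and EEF1G 3599 and 3728 against 1767 and 1569 (-1.61 ± 0.17). Inputs and pulldowns of these 3 mRNAs lay far apart. EEF2 (-1.09), EEF1A2 (-0.95) and EEF1D (-0.44) were lower too, so that 6 of the 7 passed, with 49.3% of 26708 transcripts called and 24.1% called lower. EEF1E1 did not pass (-0.38, edgeR adjusted p = 0.102). With library totals, which move the median of all transcripts from 0.08 to 0.55, EEF1D was at 0.03 and EEF1A2 at -0.49, and neither passed. EEF1D was also lost without siControl input replicate 1, siControl input replicate 2, siControl pulldown replicate 2 or the siLARP1 pulldown (edgeR adjusted p 0.0514 to 0.36). Of the other elongation and termination factors 8 of 10 were lower and 1 higher (EEF2K, the kinase that inhibits eEF2), and of the ribosomal protein TOP mRNAs 10 of 10 were lower (medians -1.24 and -1.54).

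The enrichment after siControl was lower than that without siRNA for 6 of the 7 (50.2% of 26116 transcripts called, 23.8% lower). The difference was -2.55 ± 0.12 for EEF1A1, -2.34 ± 0.14 for EEF1B2, -1.71 ± 0.13 for EEF1G, -0.95 ± 0.15 for EEF1E1, -0.86 ± 0.17 for EEF1D and -0.49 ± 0.18 for EEF2 (edgeR adjusted p from 1.69e-09 to 0.0312). EEF1A2 was at -0.58 (edgeR adjusted p = 0.0707), and passed without siControl input replicate 2 (-0.80) or siControl pulldown replicate 1 (-0.92). The scaling matters here too: with library totals EEF2 was at 0.04, EEF1D (-0.33) did not pass, and EEF1A1, EEF1B2 and EEF1G stayed between -2.02 and -1.18. The EEF2 call was lost without either input or either pulldown of the experiment without siRNA, or siControl input replicate 1 (edgeR adjusted p 0.061 to 0.114). All 10 ribosomal protein TOP mRNAs were lower after siControl, with a median of -2.57. The siRNA transfection and the experiment cannot be told apart in this comparison.

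LARP1 knockdown was compared in the inputs first. EEF1A1 had 23852 and 25124 CPM in siControl inputs and 16991 and 16988 in the siLARP1 inputs, a change of -0.72 ± 0.16 (edgeR adjusted p = 0.0212). It was the 1 member called, where 0.517% of transcripts were called and 0.198% were called lower. EEF2 had 4821 and 3942 CPM against 3188 and 3294, and did not pass (-0.62 ± 0.17, edgeR adjusted p = 0.0768), nor did EEF1B2 (-0.48), EEF1D (-0.47), EEF1G (-0.43), EEF1E1 (-0.18) or EEF1A2 (0.61). Each of the 5 TOP members was thus lower in both siLARP1 inputs than in either siControl input. Without the library labelled siLARP1 input replicate 2, whose EIF4A2 level goes against its label, EEF1A1 was at -0.71 (edgeR adjusted p = 0.195), EEF2 at -0.64, EEF1B2 at -0.47, EEF1G at -0.41 and EEF1D at -0.38, EEF1A2 at 0.26 and EEF1E1 at -0.48, and no member passed, where 0.0712% of transcripts were called. The EEF1A1 call was also lost without any of the other 3 inputs (edgeR adjusted p 0.0743 to 0.439) and with library totals (-0.53, edgeR adjusted p = 0.08). EEF2 passed without either siControl pulldown (edgeR adjusted p = 0.0409 and 0.0239) and with DESeq2 (adjusted p = 0.0252), as did EEF1B2 with DESeq2 (adjusted p = 0.0491). The ribosomal protein TOP mRNAs had a median of -0.53 with 0 of 10 called, and of -0.50 with 0 of 10 called without that library.

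The change of SBP-eIF4A1 enrichment with LARP1 knockdown rests on 1 siLARP1 pulldown library, assumed to vary like the other groups. In it EEF1A1 had 2319 CPM, EEF1G 868, EEF2 1458, EEF1B2 185, EEF1D 260.1, EEF1E1 92.0 and EEF1A2 14.7, and EEF1A1 ranked eighth of all loci by counts. For 6 of the 7, all but EEF1A2, this library lay below both siControl pulldowns. The change of enrichment was -0.42 (-0.92 to 0.07) for EEF1A1, -0.62 (-1.14 to -0.10) for EEF1G, -0.45 (-0.99 to 0.09) for EEF2 and -0.22 (-0.77 to 0.32) for EEF1B2. It was -0.75 (-1.48 to -0.01) for EEF1A2, -0.15 (-0.75 to 0.45) for EEF1E1 and 0.01 (-0.56 to 0.57) for EEF1D. By edgeR 0 of the 7 members and 0% of 26708 transcripts were called, 837 had an unadjusted p under 0.05, and DESeq2 called 0 as well. Without the library labelled siLARP1 input replicate 2, EEF1A1 was at -0.43, EEF1G at -0.64, EEF2 at -0.43, EEF1B2 at -0.23, EEF1A2 at -0.40, EEF1E1 at 0.15 and EEF1D at -0.09, and no member passed.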

How the data were processed

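The authors deposited 1 file per library with raw counts per versioned Ensembl transcript and a length of the counted region in codons (9 below the protein length for the 7 members and 27 list genes, which were accepted within 5 codons of it). The submitters' processing notes name CASAVA 1.8, STAR 2.7.0a and hg38; the counting tool and annotation release are not given in the sources used here. A read can be counted in several transcripts, so identical count vectors were collapsed (94734 transcripts to 77343) and, of neighbours within 10 rows whose log2 CPM (pseudocount 0.5) correlated at 0.9 or more, 1 was kept (35500). Printed CPM use the library's total over these. Tests used edgeR 4.0.16 in R 4.3.3 (TMM, filterByExpr with minimum count 10 and total 15, glmQLFTest, two-sided, Benjamini-Hochberg over all tested transcripts, called at an adjusted p under 0.05), checked on simulated data. SEs are the log2 change over the root of F. Coordinates are RefSeq's on GRCh38.p14. The members, gene lists and the joining of PP242 doses were chosen with earlier results of these data known. The 7 members and, of the lists, the counts, median and the largest rise and fall among those called are named. List protein lengths were entered by hand, in place of a RefSeq table. Alternatives were other scalings, DESeq2 1.42.0, no filter, all distinct transcripts, dose codings, replicate block and left-out libraries. Correlations of same-numbered libraries ran from -0.12 to 0.42.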

Additional observations from a re-analysis of the deposited data

Results flagged for a closer look

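The responses of 2 genotypes, proteins or experiments differed by a test of the difference itself (edgeR, adjusted) for 22 values of the elongation factor mRNAs. The fall of footprints with PP242 was smaller in EIF4A1 KO than in naive cells by 1.02 for EEF1A2, 0.80 for EEF2, 0.66 for EEF1A1 and 0.43 for EEF1G on the log2 scale. Against EIF4A2 KO cells, it was smaller without EIF4A1 by 1.08 for EEF2, 0.91 for EEF1A2, 0.84 for EEF1A1, 0.67 for EEF1D and 0.48 for EEF1G. Without drug, EEF1A2 mRNA was lower in EIF4A1 KO than in naive cells, at -1.43 on the log2 scale, and its part in the difference from naive cells was not tested. The part of the untreated EEF1A2 footprint level in the difference from EIF4A2 KO cells was not tested either.

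Pulldown over input was higher with SBP-eIF4A1 than with SBP-eIF4A2 by 0.80 for EEF1B2, 0.77 for EEF1G, 0.68 for EEF1A2, 0.68 for EEF1A1, 0.48 for EEF2, 0.47 for EEF1D and 0.29 for EEF1E1. With SBP-eIF4A1, it was lower after siControl than without siRNA by -2.55 for EEF1A1, -2.34 for EEF1B2, -1.71 for EEF1G, -0.95 for EEF1E1, -0.86 for EEF1D and -0.49 for EEF2. The SBP protein and its cell line, and likewise siRNA transfection and experiment, cannot be told apart. No group had 4 or more libraries, so single libraries were not tested as outliers.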

How the results depend on the processing

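Over 119 results, 1825 alternative values were computed. Among those for single members, leaving out a library kept the call in 996, lost it in 33 and gained it in 7. The other alternatives kept it in 745, lost it in 30, gained it in 11 and turned the sign in 3, while 34 signs changed among values called in neither. The 3 reversals came with library totals in place of TMM: EEF1E1 in the difference of SBP-eIF4A1 and SBP-eIF4A2 enrichment (-0.020), EEF1D in the siControl enrichment (0.033) and EEF2 in siControl minus no siRNA (0.041).

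The number of members called moved as follows. With a dose score it was 0 for PP242 in EIF4A1 KO cells and 0 for each EIF4A1 KO difference (from naive and from EIF4A2 KO cells). Over all transcripts, the dose score called 0, 4 and 1 in these comparisons, in this order. With 10 µM alone, 2 members differed between EIF4A2 KO and naive cells. With library totals, 4 differed between the SBP proteins. For LARP1 knockdown inputs it was 3 with DESeq2, 2 without a filter, 0 with library totals and 0 with the replicate block. Without 1 library, it ran from 5 to 6 (EIF4A1 KO RNA), 4 to 6 (footprints and translation efficiency without EIF4A1), 4 (EIF4A2 KO footprints), 6 (PP242 in naive or EIF4A2 KO cells), 5 to 6 (PP242 in EIF4A1 KO cells), 3 to 4 and 5 (differences of EIF4A1 KO from naive and EIF4A2 KO), 0 to 2 (EIF4A2 KO minus naive), 6 to 7 (SBP-eIF4A1 and the difference of proteins), 6 (SBP-eIF4A2), 5 to 6 (siControl), 0 to 2 (LARP1 inputs), 0 (change of enrichment) and 5 to 7 (siControl minus no siRNA).

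Same-numbered libraries did not deviate together in the untreated profiling and RNA groups (correlations of -0.12 to 0.04) or in the pulldown pairs (-0.12 to 0.08), except siControl input and pulldown (0.42). With the replicate block, EEF1D lost its translation efficiency call (edgeR adjusted p = 0.0626), EEF1A1 its LARP1 input call (edgeR adjusted p = 0.0558), and EEF1A2 passed in siControl minus no siRNA (edgeR adjusted p = 0.00173). LARP1 inputs then had 24 transcripts called, against 138. No paired analysis was possible for PP242 because its libraries carry no shared numbers.

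Counts over all transcripts also moved. DESeq2 called 5441 against 9391 (EIF4A1 KO RNA), 2216 against 4506 and 526 against 1596 (EIF4A1 and EIF4A2 KO footprints), 1143 against 1922 (PP242, naive), 749 against 1232 (EIF4A1 KO), 1438 against 2398 (EIF4A2 KO), 676 against 1243, 9 against 14 and 738 against 1274 (differences EIF4A1 KO minus naive, EIF4A2 KO minus naive and EIF4A1 KO minus EIF4A2 KO), but 370 against 138 for LARP1 inputs. In the order of these 6 PP242 results, from naive on, the dose score called 1.39% of transcripts against 9.37%, and then 0, 453, 4, 0 and 1. With 10 µM alone 945 (naive), 816 (EIF4A1 KO), 526, 26 and 618 (the 3 differences) were called, and with 1 µM alone 5 for EIF4A2 KO minus naive. Library totals gave 3431 (PP242, naive), 3979 (EIF4A2 KO) and 211 (LARP1 inputs), and no filter 28 (EIF4A2 KO minus naive), 410 (LARP1 inputs) and 1 against 0 (change of enrichment). With all distinct transcripts tested, more of them entered: 26611, 13443, 4696 and 7223 were called (EIF4A1 KO RNA, both footprint comparisons and translation efficiency, the last against 2415), 6342, 3739, 7791, 3684, 56 and 3762 (the 6 PP242 results), 42029, 44799 and 13212 against 14729, 15908 and 4177 (SBP-eIF4A1, SBP-eIF4A2 and their difference), 37604 and 36861 against 13175 and 13111 (siControl, and minus no siRNA) and 618 (LARP1 inputs). Without 1 library these counts fell as far as 2567 and 787 (EIF4A1 and EIF4A2 KO footprints), 1516 (translation efficiency), 868, 445 and 1470 (PP242 in naive, EIF4A1 KO and EIF4A2 KO cells), 646 and 582 (EIF4A1 KO minus naive and minus EIF4A2 KO), and ran from 4 to 40 (EIF4A2 KO minus naive), 2381 to 7838 (difference of SBP proteins), 18 to 340 (LARP1 inputs) and 0 to 7 (change of enrichment). One library per dose and, for EEF1A2, the lowest counts of the 7 limit the differences that can be seen.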
